A study of Rattus norvegicus with 6 samples.

Results

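The Akr1c genes encode the 1C subfamily of the aldo-keto reductases, and 9 of the 14871 genes with a named feature on the array belong to it. Members were taken as every gene whose symbol in the platform annotation starts with Akr1c, which gave 11 features of 44290. The family was chosen with earlier results of these data in view, and was chosen by the striatal log2 ratios of Akr1c13 and Akr1c19, so those values are a description and carry no test. The study used RNA from striatum, from salivary glands and from peripheral leukocytes of male rats of the outbred Wistar strain, on 6 two-colour arrays. Each array set RNA of tickled rats (Cy5) against RNA of rats given either no stimulus or a light touch (Cy3). Tickling stands in for rough-and-tumble play and evokes calls at 50 kHz, and light touch was the handling control. All rats were housed singly from 21 days of age and were sampled at 60 days, and the tickled and touched rats were stimulated on weekdays for 4 weeks.

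Values are log2 ratios as deposited, read as tickled over comparator from the labelled dyes, so that 1 is a 2-fold and 0.58 a 1.5-fold higher level in tickled tissue. Neither the direction nor the log base is stated with the values. In the opposite direction every sign would turn; if it were the natural log, every ratio on the log2 scale would grow by a factor of 1.44. Each comparison is 1 array without a dye swap. No p-value or SD between samples can therefore be given, and precision is limited by the number of arrays. The labels give 4 animals per condition but not whether an array holds a pool or 1 animal, nor whether the tickled RNA was the same on both arrays of a tissue. They name hypothalamus as the extracted tissue for every sample, beside the 3 tissues used here. Defining markers had values in the tissues as labelled: 9 of 10 medium spiny neuron markers on both striatal arrays, 7 of 8 duct markers on both salivary arrays and 9 of 10 leukocyte markers on both leukocyte arrays. On both striatal arrays 7 of 10 hypothalamus and 7 of 8 cortical neuron markers also had values, so having a value does not tell these brain regions apart. Leukocyte markers also had values on the salivary arrays, 8 of 10 against no stimulus and 9 of 10 against light touch. Having values for them is thus not particular to the leukocyte samples. The error that can be measured is that between probes for the same gene. Its median SD was 0.12 on the striatal array against no stimulus and 0.09 on that against light touch. It was 0.10 and 0.09 on the salivary arrays in the same order. Ratios give no level in either sample, so levels of different members cannot be compared, and in tissue RNA fewer cells of a type and less RNA per cell cannot be told apart.

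Enzymes of this family use NADPH or NADH to convert between ketones and alcohols on steroids, prostaglandins and foreign compounds, and so set how much active hormone a cell holds. In brain the rat enzyme encoded by Akr1c14, 3alpha-hydroxysteroid dehydrogenase, makes allopregnanolone, a steroid that strengthens signalling through GABA-A receptors. Akr1c3, formerly Akr1c18 in rat, encodes 20alpha-hydroxysteroid dehydrogenase, which inactivates progesterone. The genes lie side by side on chromosome 17, arose by duplication and are close in sequence, so a probe for 1 member may also bind transcripts of another. Probe sequences were not used here.

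The promoters show how close some of the members are. Of the 9 members, 8 had a promoter in the RefSeq table of assembly GRCr8, taken as 250 bases before and 50 after a gene's start. Those of Akr1c12l1, Akr1c13 and Akr1c12 were the most alike of 28 pairs, with 85.6% identity between Akr1c13 and Akr1c12, 82.0% between Akr1c12l1 and Akr1c12, and 79.8% between Akr1c12l1 and Akr1c13. They are printed to show how near the copies are; of these genes, Akr1c13 was among the highest in striatum. The capitals mark the longest run of bases that all 3 share, of 22 bases. Each is written 5′ to 3′ on the gene's strand.
Akr1c12l1 (chr17:70847504-70847803, plus strand): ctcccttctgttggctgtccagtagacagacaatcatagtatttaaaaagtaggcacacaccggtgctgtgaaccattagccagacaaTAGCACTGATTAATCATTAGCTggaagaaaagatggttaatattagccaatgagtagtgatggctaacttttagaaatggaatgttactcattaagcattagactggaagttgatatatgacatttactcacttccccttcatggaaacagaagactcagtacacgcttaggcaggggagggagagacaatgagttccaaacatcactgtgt
Akr1c13 (chr17:70894386-70894685, plus strand): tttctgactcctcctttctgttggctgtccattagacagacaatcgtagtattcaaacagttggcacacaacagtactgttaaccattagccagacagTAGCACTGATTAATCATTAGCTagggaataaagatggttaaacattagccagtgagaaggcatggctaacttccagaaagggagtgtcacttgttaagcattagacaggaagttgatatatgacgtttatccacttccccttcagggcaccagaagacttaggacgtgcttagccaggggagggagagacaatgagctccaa
Akr1c12 (chr17:70971363-70971662, minus strand): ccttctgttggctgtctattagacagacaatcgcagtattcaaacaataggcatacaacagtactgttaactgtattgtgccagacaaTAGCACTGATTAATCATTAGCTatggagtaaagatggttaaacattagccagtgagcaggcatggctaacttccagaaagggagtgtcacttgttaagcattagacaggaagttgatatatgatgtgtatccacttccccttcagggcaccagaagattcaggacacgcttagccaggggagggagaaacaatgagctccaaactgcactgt
The shared run begins at position -152 from the start in Akr1c13, and at -162 in both others.

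The promoter of Akr1c19, the member next to Akr1c13 whose ratios were closest to it, is of another sequence, with 45.2% identity to that of Akr1c13, against a median of 47.0% over all 28 pairs. Of the 8 family promoters 1, that of Akr1c15, had a match to the core TGACNNNGC of the antioxidant response element, which NRF2 binds. This count is near the share of 12.1% over all promoters of the same length, so nothing is read from it. Akr1c14, whose salivary ratios were close to those of Akr1c15, had no match. The capitals mark motif matches on either strand, TATAAA in Akr1c19 and TGACNNNGC in Akr1c15.
Akr1c19 (chr17:70913666-70913965, plus strand): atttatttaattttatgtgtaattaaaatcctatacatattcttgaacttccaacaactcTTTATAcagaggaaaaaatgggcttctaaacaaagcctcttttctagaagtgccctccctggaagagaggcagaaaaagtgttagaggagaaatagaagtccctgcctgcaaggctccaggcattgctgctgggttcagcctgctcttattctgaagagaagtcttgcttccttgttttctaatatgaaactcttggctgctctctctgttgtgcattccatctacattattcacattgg
Akr1c15 (chr17:71117908-71118207, minus strand): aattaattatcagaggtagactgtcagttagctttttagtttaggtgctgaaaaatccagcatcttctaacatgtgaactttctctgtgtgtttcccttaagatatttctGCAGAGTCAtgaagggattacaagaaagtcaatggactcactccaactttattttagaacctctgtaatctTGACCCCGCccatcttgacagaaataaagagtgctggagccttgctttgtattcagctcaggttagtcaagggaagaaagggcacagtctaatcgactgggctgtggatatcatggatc
The element core was found at both position -140 (minus strand) and position -69 (plus strand) from the start of Akr1c15, and 12.1% of 33469 promoters of the same length hold it. TATAAA was found in 2 of the 8 family promoters, those of Akr1c19 and Akr1c3, and in 14.2% of all. AGAACA, a half-site of the glucocorticoid, androgen and progesterone receptors, was found in 0 of the 8 and in 20.7% of all. The matches in the family's promoters do not overlap, and a match of letters is a description, not a binding site.

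In striatum, the part of the forebrain that takes part in reward and movement, Akr1c13 and Akr1c19 had the highest ratios of the family against both comparators. Akr1c13, in mouse a dehydrogenase of hydroxysteroids and foreign alcohols, had log2 ratios of 0.77 against no stimulus and 0.92 against light touch, which are 1.71-fold and 1.89-fold. Akr1c19, in mouse a dehydrogenase of hydroxysteroids, had 0.74 and 0.76, or 1.67-fold and 1.70-fold. The ratios of these neighbouring members differed by less than the median probe SD against no stimulus, and by more than it against light touch. Akr1c13 ranked 14 of 10922 genes from the highest against no stimulus and 15 of 10835 against light touch, and Akr1c19 ranked 16 and 30. Each of these ratios rests on a single probe. A second probe of Akr1c13, annotated to an expressed sequence tag, had no value on any array, so no other probe bears on the level of Akr1c13.

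The other striatal members lay lower and not all on 1 side of 0. Akr1c15, a reductase of aldehydes and ketones, had 0.52 against no stimulus and 0.11 against light touch, a median of 2 probes at 0.29 and -0.06. Its probe with a value on both arrays had 0.52 and 0.29, so the size of the drop between the arrays depends on the probe set. Akr1c14 had 0.21 and 0.13, or 1.16-fold and 1.10-fold, and ranked 1076 and 1611 from the highest. Akr1c12l1 had -0.06 against no stimulus and 0.23 against light touch. The 4 remaining members, Akr1c2, Akr1c1, Akr1c12 and Akr1c3, had no striatal value.

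By count, 2 of the 5 striatal members with a value were 1.5-fold or more higher in tickled tissue against no stimulus, namely Akr1c13 and Akr1c19, and over all genes the share was 0.485%. Against light touch the same 2 of 5 passed, with 0.812% of all genes. Since the family was chosen with these values known, nothing is read from the counts. At 2-fold no striatal member passed, and over all genes the shares were 0.0458% and 0.0831%. The median of the 5 members was 0.52 against no stimulus and 0.23 against light touch, and that of all genes was -0.02 and -0.00. Without Akr1c13 and Akr1c19 the family medians were 0.21 and 0.13.

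**Figure D1:**
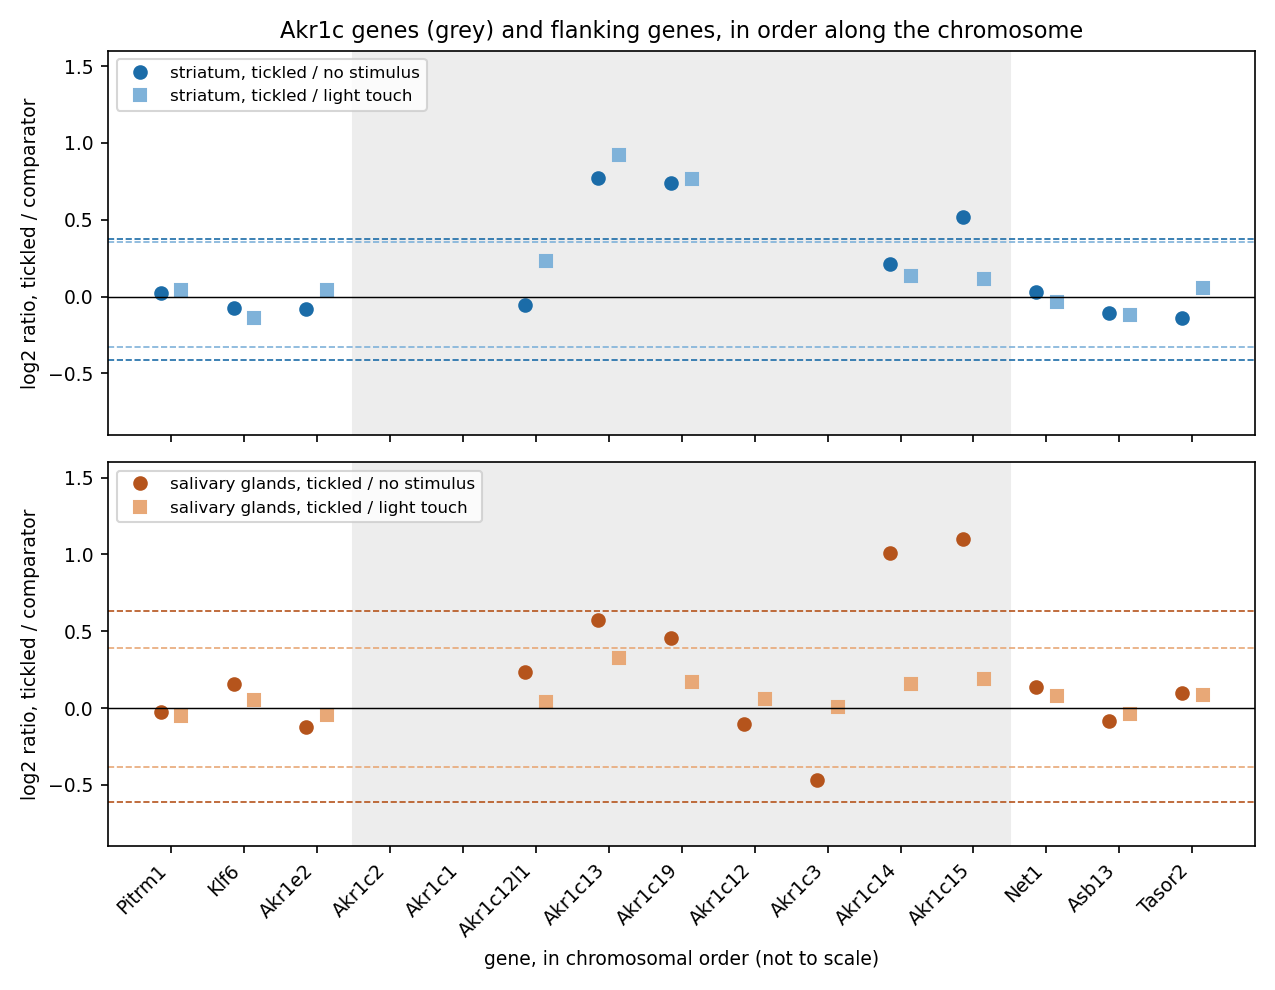
Log2 ratios of the 9 Akr1c genes (grey ground) and of the 3 nearest genes with values on each side, in chromosomal order. Circles are tickled against no stimulus, squares tickled against light touch, striatum above and salivary glands below; dashed lines bound the central 95% of all genes on the array of that colour. Akr1c13 and Akr1c19 stand highest in striatum, Akr1c14 and Akr1c15 in salivary glands against no stimulus, and the flanking genes lie between -0.14 and 0.16.

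The markers of other cells in the same striatal samples had the following medians. Cortical glutamatergic neuron markers were lowest, at -0.78 against no stimulus (range -1.26 to -0.20) and -0.82 against light touch (-1.13 to -0.38), with 7 of 8 valued. Erythroid markers had -0.22 (-0.65 to 0.31) and -0.26 (-0.43 to 0.20), with 4 of 5 valued. Hypothalamus markers had 0.21 (-0.50 to 1.08) and 0.15 (-0.21 to 0.73), with 7 of 10 valued, and choroid plexus markers 0.17 (-0.33 to 0.59; 4 of 9) and 0.23 (-0.19 to 1.62; 5 of 9). Markers of meninges and fibroblasts had 0.28 (-0.21 to 0.51; 7 of 8) and 0.15 (-0.03 to 0.35; 8 of 8).

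Astrocyte markers had 0.23 against no stimulus (0.15 to 0.36) and 0.04 against light touch (-0.05 to 0.30), with 7 of 7 valued. Oligodendrocyte markers had 0.22 (-0.03 to 0.30) and 0.08 (-0.03 to 0.23), with 5 of 6 valued. Microglia markers had 0.15 (0.02 to 0.27) and 0.05 (-0.02 to 0.30), with 6 of 6 valued. Vascular markers had 0.21 (-0.14 to 0.54) and 0.02 (-0.06 to 0.27), with 8 of 9 valued. Medium spiny neuron markers had -0.11 (-0.42 to 0.09) and 0.00 (-0.17 to 0.12), with 9 of 10 valued. The part of these cells in the ratios of Akr1c13 and Akr1c19 was not tested.

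In salivary glands other members led against no stimulus. There Akr1c15 had a log2 ratio of 1.10, or 2.15-fold, and Akr1c14 had 1.01, or 2.01-fold, ranking 77 and 94 of 10522 genes from the highest. Against light touch they had 0.19 and 0.16, or 1.14-fold and 1.11-fold. These are neighbours among the members in chromosomal order, and their ratios differed by less than the median probe SD on both salivary arrays. Each rests on 1 probe with a value.

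Akr1c13 and Akr1c19 were above 0 here too, but lower than in striatum. Over all features the striatal and salivary arrays correlated at 0.20 to 0.27. Tickled RNA carried Cy5 on all of these arrays, so the tissues are not independent of the dye. Akr1c13 had 0.58 against no stimulus, or 1.49-fold, just under the 1.5-fold line, and 0.33 against light touch, where it was the highest member and ranked 385 of 10716. Akr1c19 had 0.46 and 0.17. Akr1c12l1 had 0.24 and 0.04.

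Both members with values in salivary glands and none in striatum lay below these against no stimulus. Akr1c3, the progesterone-inactivating enzyme, was the lowest member against no stimulus, at -0.47, or 1.38-fold lower in tickled glands and rank 434 from the lowest. Against light touch it had 0.01. Akr1c12, whose promoter is nearest in sequence to that of Akr1c13, had -0.11 and 0.06. The members between Akr1c19 and Akr1c14 in chromosomal order, Akr1c12 and Akr1c3, were thus below 0 against no stimulus while those on either side were above it. The value of Akr1c12 was close in size to the median probe SD of that array, 0.10. Akr1c2 and Akr1c1 had no value in either gland comparison.

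By count, 2 of the 7 salivary members with a value were 1.5-fold or more higher against no stimulus, Akr1c14 and Akr1c15, and the share over all genes was 2.94%. Both also passed 2-fold, with 0.931% of all genes. Against light touch 0 of 7 passed 1.5-fold, with 0.877% of all genes, and 0 passed 2-fold, with 0.187%. The family was chosen with earlier results of these data in view, so nothing is read from the salivary counts either. The median of the 7 members was 0.46 against no stimulus (range -0.47 to 1.10) and 0.16 against light touch (0.01 to 0.33). All genes had a median of -0.01 and of -0.00.

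**Figure D2:**
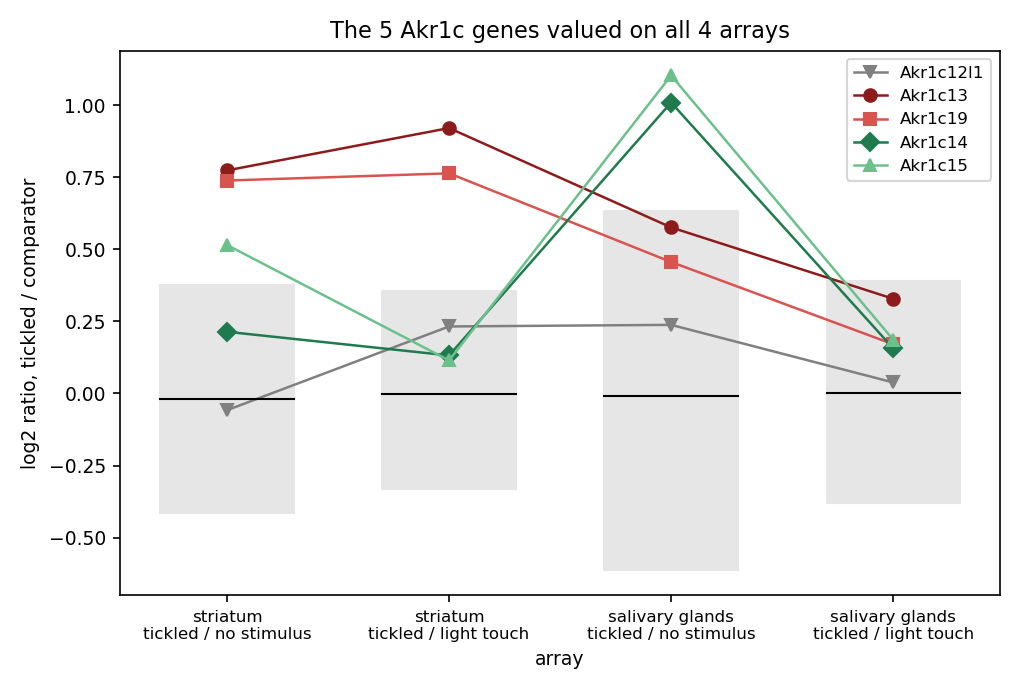
Log2 ratios of the 5 Akr1c genes with values on all 4 striatal and salivary arrays; each line joins 1 gene across arrays as a guide to the eye. Grey boxes span the central 95% of all genes on an array and black bars their median. Akr1c13 and Akr1c19 lie between 0.74 and 0.92 in striatum. Akr1c14 and Akr1c15 lie at 1.01 and 1.10 in salivary glands against no stimulus and at 0.16 and 0.19 against light touch.

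The salivary array against no stimulus also differed widely in genes that mark parts of the gland. Granular and striated duct markers had a median of 3.03 over 7 of 8 markers (range 0.82 to 3.73) against no stimulus and -0.19 (range -0.30 to 0.50) against light touch. Mucous acinar markers had -2.59 over 4 of 6 (range -4.11 to -0.997) and -0.12 over 3 of 6. Adipocyte markers had -1.11 and 1.33 over 5 of 7, with ranges of -1.68 to -0.05 and 0.11 to 1.61. On each array 3 of these 5 were past 1.5-fold. Parotid and serous acinar markers had -0.09 and 0.03 over 7 of 8, with ranges of -1.47 to 1.87 and -0.09 to 2.31. Against no stimulus the duct markers were thus higher, and the mucous acinar and adipocyte markers lower. On the same array microglia markers, shared with tissue macrophages, had a median of 0.41, leukocyte markers 0.18, vascular markers 0.15 and erythroid markers -0.33. The part of these markers in the ratios of Akr1c14 and Akr1c15 was not tested.

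If the tickled RNA was the same on both arrays of a tissue, the difference of their ratios gives light touch against no stimulus. In salivary glands this was 0.92 for Akr1c15 and 0.85 for Akr1c14, or 1.89-fold and 1.81-fold, ranking 94 and 122 of 10344 genes. Akr1c19 had 0.29, Akr1c13 0.25 and Akr1c12l1 0.20, while Akr1c12 had -0.16 and Akr1c3 -0.48. In striatum Akr1c19 had -0.02, Akr1c13 -0.15, Akr1c14 0.08 and Akr1c12l1 -0.29. Akr1c15 had 0.40 by its gene medians and 0.23 by the probe valued on both arrays. Read this way, the salivary ratios of Akr1c14 and Akr1c15 separated the no-stimulus sample from both others. The striatal ratios of Akr1c13 and Akr1c19 were high against both comparators, but the family was chosen by these values, so nothing is read from that.

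In peripheral leukocytes 0 of the 9 members had a value on either array. Of all genes, 42.5% had a value against no stimulus and 41.6% against light touch. Among the 9426 genes with a value on all 4 striatal and salivary arrays, 65.4% had one on at least 1 leukocyte array, against 0 of the 5 members with values on all 4. The sources used here do not give the rule for a blank, so a blank does not give a level.

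No protein-coding gene from outside the Akr1c family lies between the members in the RefSeq table. That table holds 10 Akr1c genes, 1 of them with no named probe on the array, and where this gene lies was not examined. Neighbours and chromosomal order are therefore given among the members only. The genes that flank the members were near 0. Going outwards, Akr1e2, Klf6 and Pitrm1 lie before the family and Net1, Asb13 and Tasor2 after it, each the nearest with values on the 4 arrays. Their 6 ratios lay between -0.14 and 0.03 in striatum against no stimulus and between -0.14 and 0.05 against light touch. In salivary glands they lay between -0.13 and 0.16 against no stimulus and between -0.05 and 0.09 against light touch. Akr1e2, an aldo-keto reductase of another subfamily beside the cluster, had -0.08, 0.04, -0.13 and -0.04 on the 4 arrays in that order.

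The ratios of pairs with alike and with unlike promoters overlapped. Against no stimulus in salivary glands the 3 pairs at 79.8% identity or more differed by a median of 0.34 (range 0.34 to 0.68), and the 18 other pairs, at 49.3% or less, by a median of 0.68 (0.09 to 1.57). In salivary glands against no stimulus Akr1c13 and Akr1c12, the pair with the most alike promoters, differed by 0.68. Akr1c14 and Akr1c15, with promoters 47.1% identical, differed by 0.09, and Akr1c13 and Akr1c19 by 0.12. Akr1c3 and Akr1c15, at 48.4%, differed by 1.57. In striatum Akr1c13 and Akr1c12l1 had 0.77 and -0.06 against no stimulus, and 0.92 and 0.23 against light touch, and Akr1c12 had no value. The pairs share genes and are not independent, so no test is given.

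**Figure D3:**
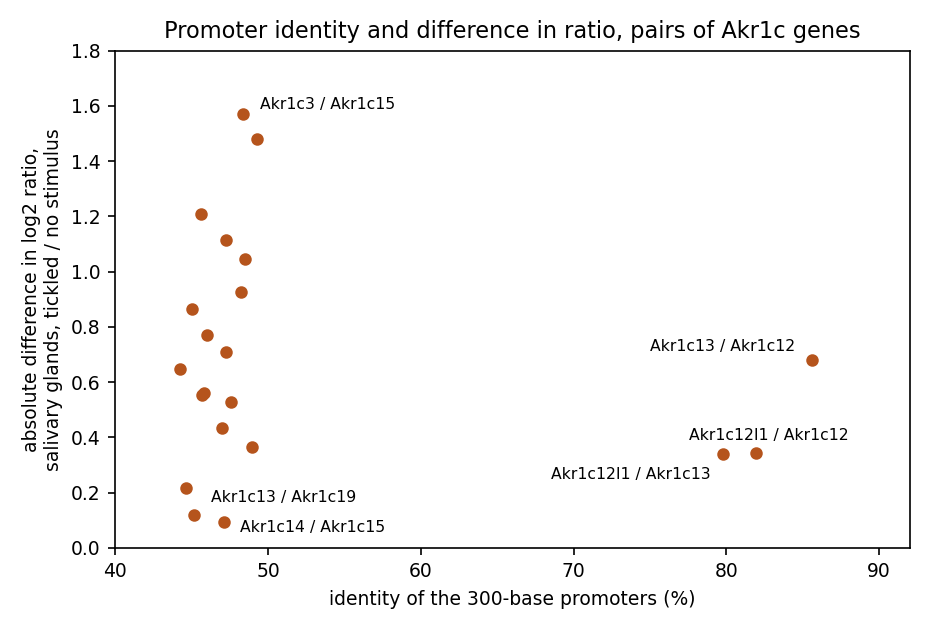
Identity of the 300-base promoters (horizontal, %) against the absolute difference in log2 ratio in salivary glands, tickled against no stimulus (vertical); each point is a pair of Akr1c genes with a promoter and a value. The 3 pairs among Akr1c12l1, Akr1c13 and Akr1c12, at 79.8% to 85.6%, differ by 0.34 to 0.68, and the pairs Akr1c14 with Akr1c15 and Akr1c13 with Akr1c19 differ least.

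Lists of other genes from the pathways in which these enzymes work had striatal medians near 0. The 10 other aldo-keto reductases with a value had medians of -0.07 against no stimulus and -0.05 against light touch, with 0 past 1.5-fold either way on either array. Akr1a1 (aldehyde reductase) had -0.19 and -0.03, and Akr1b1 (aldose reductase) had -0.23 and -0.10. Steroid synthesis and metabolism genes had medians of -0.01 over 17 and -0.01 over 16 of the 37 listed, again with 0 past 1.5-fold. Tspo, the translocator protein of the outer mitochondrial membrane, had -0.17 and 0.19, and Srd5a3, a steroid 5alpha-reductase family gene, had -0.18 and 0.08.

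Steroid receptors and GABA-A subunits had striatal medians of -0.07 and -0.01 over 14 of 22, with 0 past 1.5-fold. Gabra3 and Gabra5, which encode alpha subunits of the receptor that allopregnanolone acts on, had -0.53 and -0.22, and -0.52 and -0.33. They were the lowest of the list against no stimulus and were named after their values were seen. The other valued subunits lay on both sides of 0 against no stimulus. Gabrg3 had -0.47, Gabra2 -0.21, Gabra4 -0.07, Gabrd -0.07, Gabrb1 -0.00, Gabrg1 0.12 and Gabrb2 0.19. Nr3c1, the glucocorticoid receptor, had 0.18 and 0.08. Prostaglandin genes had 0.10 and 0.07 over 18 of 27, with 1 gene past 1.5-fold, the prostaglandin-degrading enzyme gene Hpgd at 1.40 against no stimulus and 0.43 against light touch. Ptgs1 (cyclooxygenase 1) had 0.14 and 0.13, and Ptgs2 (cyclooxygenase 2) had -0.31 and -0.17.

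Genes of the NRF2 pathway, the response to oxidants and electrophiles, had striatal medians of 0.04 and 0.05 over 30 of 34, with 0 past 1.5-fold. Nfe2l2, which encodes NRF2, had 0.27 and 0.18, and its target Nqo1 had 0.03 and -0.02. Among aldehyde and alcohol dehydrogenases the medians were 0.10 over 19 and 0.04 over 21 of 27. Aldh1a1, a retinaldehyde dehydrogenase, was the 1 gene past 1.5-fold, at 0.59 against no stimulus, with 0.28 against light touch. On the striatal arrays the medians of the 6 lists thus lay between -0.07 and 0.10.

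In salivary glands against no stimulus more of these genes lay far from 0, in both directions, on an array where 2.94% of all genes were 1.5-fold higher and 2.74% lower. Hsd17b2, which inactivates estradiol and testosterone, had -2.52 against no stimulus and -0.61 against light touch. Hsd11b2, which inactivates glucocorticoids in ducts, had 0.64 and 0.01, and Nr3c2, the mineralocorticoid receptor gene, had -0.999 and -0.28. Akr1b8, a reductase related to aldose reductase, had -1.27 and -0.23. Pla2g4a, the cytosolic phospholipase that frees arachidonic acid, had -0.83 and 0.10.

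Of the NRF2 pathway, Gsta2 had 1.22 and 0.24 and Gsta1 had 0.64 and 0.09; both encode alpha-class glutathione S-transferases and are paralogs whose probes may not tell them apart. Nqo1 had -0.16 and -0.24, Gclc had -0.05 and 0.08, and the list's median was -0.01 over 31 and -0.04 over 30 genes. The remaining salivary medians against no stimulus were -0.12 for other aldo-keto reductases (1 of 8 past 1.5-fold lower) and 0.04 for steroid genes (1 of 19 higher and 1 lower). They were -0.12 for receptors (1 of 5 lower), 0.03 for prostaglandin genes (1 of 20 lower) and -0.13 for the dehydrogenases (0 of 20). Against light touch the medians of the 6 lists lay between -0.10 and -0.01, and Hsd17b2 was the 1 gene of the 6 lists past 1.5-fold.

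**Figure D4:**
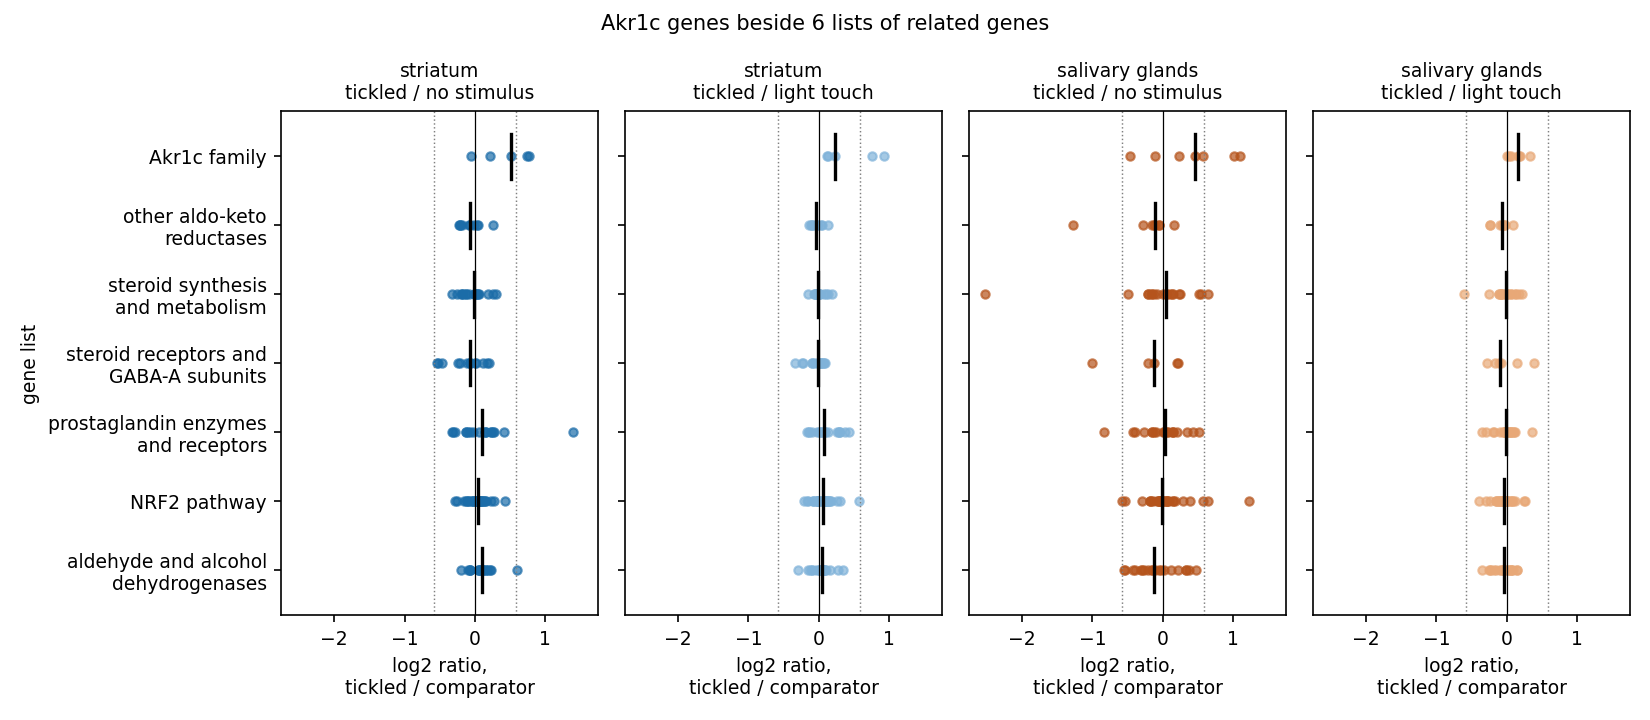
Log2 ratios (horizontal) of the Akr1c genes and of 6 lists of related genes on the striatal and salivary arrays; each point is a gene, black bars are list medians and dotted lines mark 1.5-fold. The family medians are 0.52, 0.23, 0.46 and 0.16 from left to right, and those of the 6 lists lie between -0.13 and 0.10. Without Akr1c13 and Akr1c19, whose striatal ratios chose the family, its medians are 0.21, 0.13, 0.24 and 0.056.

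The genes most like Akr1c13 over the 4 arrays on which it has a value were found by Euclidean distance between log2 ratios among 9416 genes outside the family whose symbol is not a locus number. They were Msx1, a homeobox gene (distance 0.25), Lyve1, the hyaluronan receptor gene of lymphatic vessels (0.37), the odorant receptor gene Or9g4 (0.42), Mthfd2l, a mitochondrial folate enzyme gene (0.42), and Psg16, a pregnancy-specific glycoprotein gene (0.43). Msx1 had 0.58 against no stimulus and 0.90 against light touch in striatum, and 0.43 and 0.36 in salivary glands. For Akr1c19 they were Gja5, a connexin gene (0.27), the kinesin gene Kif12 (0.28), Msx1 (0.28), Pde6h, a cone phosphodiesterase subunit gene (0.29), and Mthfd2l (0.30). Akr1c13 and Akr1c19 lay 0.26 from each other, and 0.94 to 1.17 from Akr1c12l1, Akr1c14 and Akr1c15. The striatal values of Akr1c13 and Akr1c19, by which the family was chosen, enter these distances, so the distances are a description only. Akr1c14 and Akr1c15 lay 0.32 apart. Each gene named here as alike had 1 probe with a value in striatum against no stimulus. Both arrays of a tissue carry RNA of tickled rats, and whether from the same extract is not known, so the 4 values may not be independent.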

How the data were processed

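Log2 ratios of 6 two-colour Agilent rat arrays were used as deposited by the authors. Per the labels, comparator RNA was labelled with Cy3 and tickled RNA with Cy5, from 500 ng of total RNA. Agilent Feature Extraction 9.1 is named per the submitters' processing notes; how the ratios were normalized, when a value was left blank and the log base are not stated there. Base 2 was assumed; the largest absolute value, 7.75, is 216-fold in base 2. The direction is not stated with the values; it was taken from the dyes. No channel intensities were used.

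Features were named through the platform annotation, with symbols updated by Entrez identifier from RefSeq (GRCr8): 23535 features had 1 symbol, 48 several and 20707 none; 23488 identifiers matched and 1 symbol changed, none of a member. The median of a gene's probes was taken as its value. All per-sample columns were used. Genes past 1.5-fold were counted, with no test, beside the same share of all genes. Counting was tested on simulated data. Promoters were aligned globally with Biopython 1.88 and motifs searched on both strands.

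Members, gene lists and marker lists were chosen with earlier results of these data known. The rule for named genes took all members, list genes past 1.5-fold, up to 4 further genes per list and the 5 genes nearest to Akr1c13 and to Akr1c19. Some list genes (Srd5a3, Gabra3, Gabra5, Ptgs2, Gclc) were named after their values were seen. Alternatives were centring, scaling, probe summary, naming, log base, members and fold threshold.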

Additional observations from a re-analysis of the deposited data

Results flagged for a closer look

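Akr1c12l1 had opposite signs in the 2 tissues under the same comparator: -0.058 in striatum and 0.24 in salivary glands, both tickled over no stimulus. The difference was not tested, there is 1 array on each side, and the striatal value is smaller than the median probe SD of that array, 0.12.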

How the results depend on the processing

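Centring the arrays, the mean over probes, platform symbols as given, counting each probe once and keeping only genes with values on both arrays of a tissue moved none of the 4 family medians by more than the median probe SD. Without Akr1c13 and Akr1c19 the striatal medians fell to 0.21 (no stimulus) and 0.13 (light touch) and the salivary medians to 0.24 and 0.056, by the loss of those members. Scaling the arrays to 1 spread gave 0.41 in striatum over light touch. Read as natural logs, which the values do not exclude, the striatal medians were 0.74 and 0.34, and the salivary median was 0.66 over no stimulus. At 2-fold the counts of members were 0 on both striatal arrays. For the counts, scaling to 1 spread and reading as natural logs were alternatives added after seeing the data. Over no stimulus, scaling put 3 members past 1.5-fold in striatum and 3 in salivary glands. Natural logs put 3 past it in striatum and 5 in salivary glands, Akr1c3 at -0.68 among the 5. Over light touch both left the counts at 2 in striatum and 0 in salivary glands. Of 120 values of single members under alternatives, 96 moved by less than the probe SD and 24 by more, 11 by scaling and 13 by the log base. Both of these multiply a value by a positive factor and cannot change its sign. The probe mean and the naming left the member values as they were, and centring moved them only slightly. That 0 values changed sign is therefore no support for the ratios. With no leukocyte value, no family median could be computed there. No paired analysis was possible because each comparison has 1 array. Signal over background is not known without the channel intensities.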
